A study of Homo sapiens with 18 samples.

Results

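The APOBEC3 cytidine deaminases are the 7 human genes APOBEC3A, APOBEC3B, APOBEC3C, APOBEC3D, APOBEC3F, APOBEC3G and APOBEC3H. They were taken by symbol from count tables that listed 40916 gene symbols, and all 7 were present. Poly(A)-selected RNA was sequenced from MCF10A, a non-transformed human mammary epithelial line carrying a histone H2B-GFP reporter, from HCT116, an unlabelled human colorectal carcinoma line, and from mixed cultures that the submitters set up with 50% of either line. Cultures of all 3 kinds stayed without radiation (NIR) or received 10 Gy of ionizing radiation (IR), with 3 biological replicates in each of the 6 groups. MCF10A was grown in an F12 and DMEM mixture with horse serum, EGF, hydrocortisone, cholera toxin and insulin, and HCT116 in McCoy's 5A with fetal bovine serum. A difference between the lines is therefore also a difference between media, and these cannot be told apart. For the mixtures the medium is not given in the sources used here. Harvest is placed at day 2 by the sample titles and at 72 h after irradiation by the series description.

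APOBEC3 enzymes deaminate cytosine to uracil in single-stranded DNA. They are known as restriction factors that damage the DNA copies of retroviruses and retroelements, and as a source of clustered and dispersed C-to-T and C-to-G mutations in tumour genomes. APOBEC3A, APOBEC3C and APOBEC3H have a single zinc-binding deaminase domain, and APOBEC3B, APOBEC3D, APOBEC3F and APOBEC3G have a pair. APOBEC3B is largely nuclear, and its transcription is known to be repressed by p21-DREAM signalling and driven by NF-kappaB after protein kinase C activation. APOBEC3A and APOBEC3G are known as interferon-inducible genes. These are background facts, and RNA levels do not show enzyme activity.

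The genes lie head to tail on the plus strand of chromosome 22 within 146.46 kb in the RefSeq annotation of GRCh38.p14. APOBEC3A spans chr22:38957609-38963184 and APOBEC3B chr22:38982347-38992779. APOBEC3C spans chr22:39014257-39020352, APOBEC3D chr22:39021127-39033277 and APOBEC3F chr22:39040864-39055972. APOBEC3G spans chr22:39077005-39087743 and APOBEC3H chr22:39097244-39104067. The antisense gene APOBEC3B-AS1, at chr22:38991559-38998220, overlaps the APOBEC3B span by 1221 bases. It had 0 to 2 counts in a library. The strand setting of the counting is not given in the sources used here, so reads from that overlap could not be assigned with certainty.

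The genes arose by duplication and share sequence, which bears on how their reads were counted. In GENCODE 29, 5.79% of the 150-base windows of the principal APOBEC3A transcript occurred word for word in a transcript of another APOBEC3 gene. The share was 5.72% for APOBEC3B, 5.17% for APOBEC3D, 6.64% for APOBEC3F and 5.70% for APOBEC3G. It was 0% for APOBEC3C and APOBEC3H. With 50-base windows the shares reached 27.5% for APOBEC3B, 24.0% for APOBEC3F and 22.7% for APOBEC3A, against 1.16% for APOBEC3C and 0% for APOBEC3H. The levels of APOBEC3C and APOBEC3H were thus the least open to reads shared within the family, and those of APOBEC3A, APOBEC3B, APOBEC3D, APOBEC3F and APOBEC3G are uncertain to that extent. Sequences outside the 7 genes were not compared.

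Of the 7 genes, 1 had an upstream sequence in the RefSeq promoter table used, APOBEC3H, and its 250 bases before the start are shown because its RNA rose after irradiation in both cultures that held HCT116 (values below). The window is chr22:39096994-39097243 (GRCh38.p14, plus strand, 5′ to 3′), with GAAA, the half-element that interferon regulatory factors bind, in capitals.
APOBEC3H upstream: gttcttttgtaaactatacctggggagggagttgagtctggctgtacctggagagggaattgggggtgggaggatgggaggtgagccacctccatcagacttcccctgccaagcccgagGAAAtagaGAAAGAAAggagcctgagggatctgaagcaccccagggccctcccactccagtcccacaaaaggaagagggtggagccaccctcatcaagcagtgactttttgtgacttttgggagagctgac
GAAA occurred 3 times on the gene's strand and 0 times on the other, without overlap with any other motif searched. At least 1 GAAA on either strand was found in 82.7% of 34796 promoter windows of the same length, and as many as here in 43.6%. The 9-letter interferon-stimulated core GAAANNGAA had 0 matches here and was present in 6.89% of windows. The cell cycle homology element TTTGAA had 0 matches (13.3% of windows), its variant TTCGAA 0 (1.20%), and the NF-kappaB consensus 0 (5.21%). A match or its absence describes these letters only.

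The 18 libraries held 25737818 to 40839835 counts. Levels are given as CPM, a gene's counts times 1000000 over its library's total, as mean ± SD over 3 libraries. Mitochondrial transcripts took 5.10 to 5.32% of the counts in MCF10A NIR and 6.06 to 6.35% in MCF10A IR. They took 8.42 to 8.75% in HCT116 NIR and 11.5 to 12.3% in HCT116 IR. In the mixed cultures they took 8.37 to 8.73% in NIR and 12.0 to 12.7% in IR. The share was thus higher after irradiation in every kind of culture. The 10 basal mammary markers summed to 11200 to 11950 CPM in MCF10A NIR and 483 to 525 in HCT116 NIR, where TP63 was at 0. The 8 intestinal markers summed to 1046 to 1336 CPM in HCT116 NIR and 9.36 to 11.2 in MCF10A NIR, where CDX1, CDX2, CDH17 and KRT19 were at 0. CDX1 was at 0 in both HCT116 groups too. In HCT116 NIR, 4 of the 8 reached 1 CPM, and KRT19 alone held 886.5 CPM. Summed over 10 leukocyte markers the level was 1.20 to 5.33 CPM in all groups, with CD3D and CD3E at 0 in both HCT116 groups. In MCF10A IR only LYZ was at 0. The highest of them was CD14 in MCF10A, at 3.65 CPM in NIR and 3.60 in IR. In HCT116 it was ITGAM, at 0.690 CPM in NIR and 3.06 in IR (log2 fold change 2.15, adjusted p 4.8e-06 by edgeR). Of 6 fibroblast markers, DCN was at 119.1 and 240.2 CPM in MCF10A NIR and IR and at 0 in both HCT116 groups. COL1A1 was the highest in HCT116 NIR, at 42.2 CPM. From genes specific to either line, the share of MCF10A RNA in the mixed cultures was estimated at 0.420% ± 0.0685 in NIR and 1.23% ± 0.0511 in IR (SD, n = 3), against 50% of cells in the description. In an exact permutation test the 2-sided p was 0.1, the smallest that 3 against 3 allows. The share was 0.322% and 1.01% with stricter marker limits (50 and 0.5 CPM), and 0.705% and 2.17% from sums. The mixed libraries were therefore read beside HCT116. In bulk RNA, fewer cells of a line and less RNA per cell cannot be told apart.

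**Figure D1:**
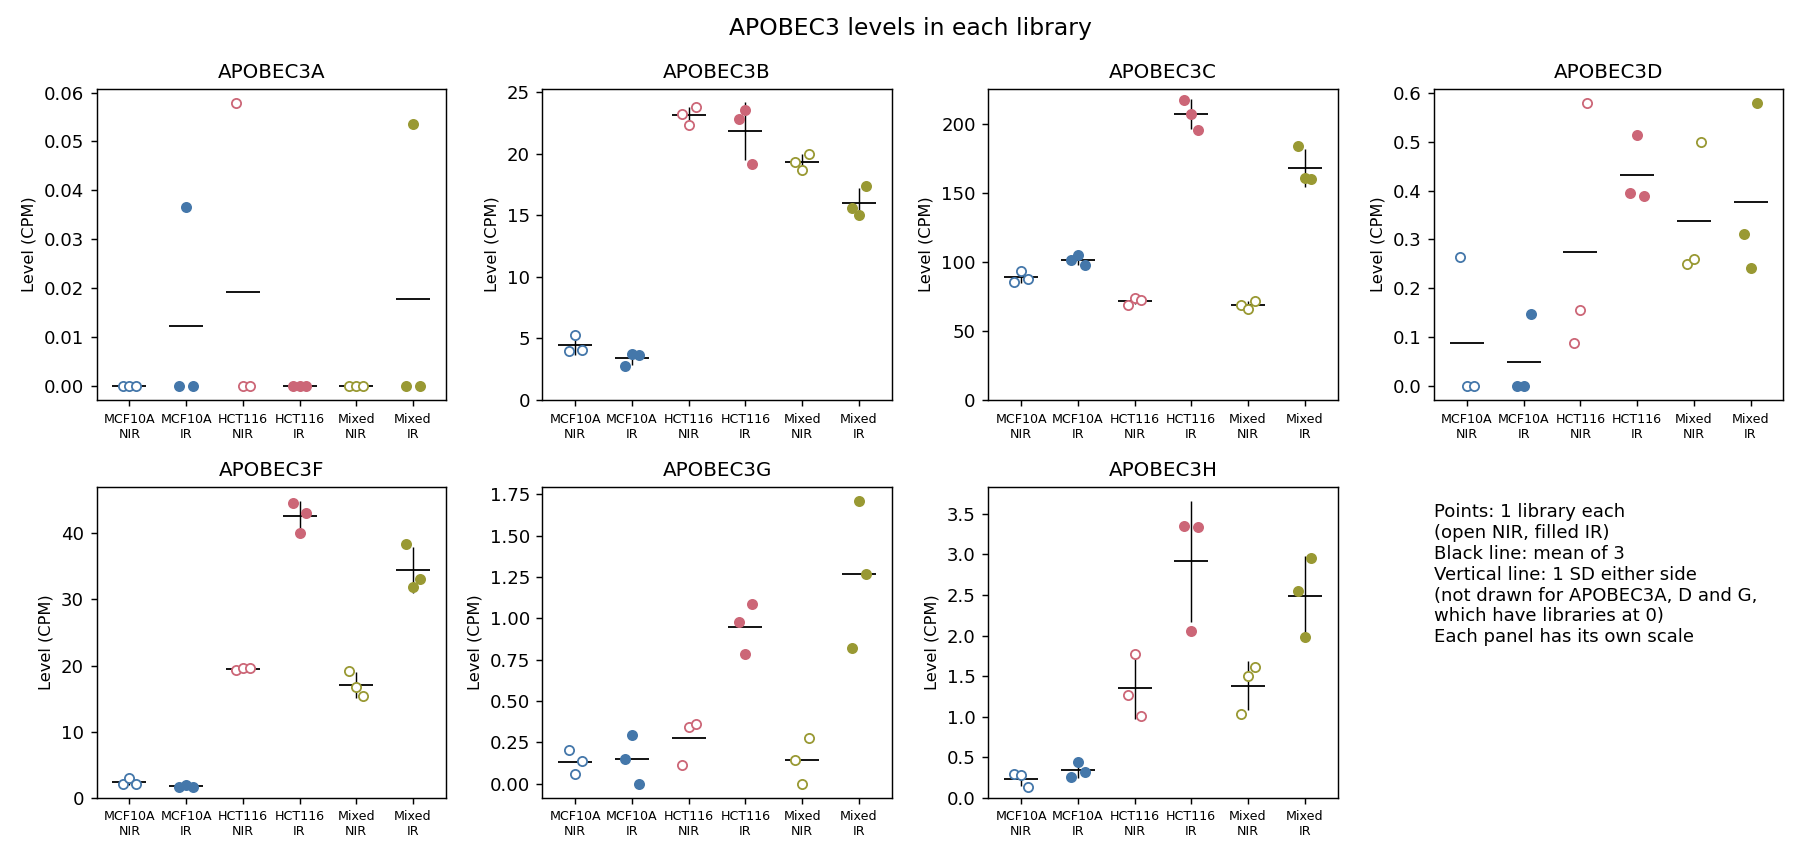
Level of each APOBEC3 gene in CPM, 1 point per library, in the 6 groups. Lines mark the means, and vertical lines 1 SD. Each panel has its own scale. APOBEC3C reached 196 to 217 CPM in HCT116 IR, and APOBEC3A stayed between 0 and 0.0579 CPM in all libraries.

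APOBEC3C RNA was the highest of the family in every group after division by transcript length, and APOBEC3C, APOBEC3F, APOBEC3G and APOBEC3H rose after irradiation of HCT116, while APOBEC3B did not pass the test there. In MCF10A only APOBEC3C passed, at 1.14-fold. Each comparison was tested with edgeR's quasi-likelihood test over all genes that passed its count filter, and a change was called at a Benjamini-Hochberg adjusted p under 0.05. A gene that reached the filter's cut-off in only 1 of the compared groups had to differ, so members are counted here where they reached it in all 6 libraries. In HCT116, 3 of 4 such APOBEC3 genes were called higher and 0 lower, against 25.3% of all 16857 tested genes called higher and 27.2% lower (26.8% and 29.8% of the 14626 genes at the cut-off throughout). Of 4 in the mixed cultures, 3 were higher and 1 lower, against 24.0% and 25.4% of 16906 genes (24.8% and 28.1% of 14821). In MCF10A, 1 of 3 was higher and 0 lower, against 26.2% and 29.2% of 15154 genes (26.3% and 32.5% of 13426). The median log2 fold change of these members was 1.12 in HCT116, 0.90 in the mixed cultures and -0.41 in MCF10A, beside -0.01, -0.01 and -0.03 for all genes at the cut-off throughout. APOBEC3D and APOBEC3G, tested in HCT116 and the mixed cultures but not at the cut-off throughout, are described one by one. With upper-quartile factors 57.5% of the genes called in MCF10A were higher, against 47.4%. APOBEC3A was below the filter everywhere, and APOBEC3D, APOBEC3G and APOBEC3H were below it in MCF10A.

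APOBEC3A, a potent single-domain deaminase, was not detected above a few counts. It had 0 counts in 15 of 18 libraries, 1 count in MCF10A IR replicate 2, and 2 counts each in HCT116 NIR replicate 1 and mixed IR replicate 2. For the 3 groups with 0 counts the limit was set at 0.0304 CPM in MCF10A NIR, 0.0302 in HCT116 IR and 0.0304 in mixed NIR (3 counts over the group, which covers counting error only). These limits take counts as independent, while 68.3% of the counts from 1 to 10 were even, so they may be too low. At this depth no change with irradiation was detectable.

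APOBEC3B, the nuclear double-domain enzyme, was at 3.94, 5.30 and 4.03 CPM in the MCF10A NIR libraries and at 2.76, 3.72 and 3.68 in IR. All 3 irradiated libraries lay below all 3 controls, but the log2 fold change of -0.41 (SE 0.21) had an adjusted p of 0.094 by edgeR. In the fit of all 18 libraries it was -0.41 with an adjusted p of 0.024, and over all alternatives the adjusted p ran from 0.024 to 0.39. In HCT116, APOBEC3B was at 23.2, 22.3 and 23.8 CPM in NIR and 22.8, 23.5 and 19.1 in IR. These groups overlapped, with a log2 difference of -0.07 (95% interval -0.28 to 0.14, adjusted p 0.58 by edgeR). In the mixed cultures it was at 19.3, 18.6 and 19.9 CPM in NIR and 15.6, 15.0 and 17.4 in IR, without overlap. It fell by 0.30 on the log2 scale (SE 0.10, adjusted p 0.015 by edgeR). This call was lost in the fit of all 18 libraries (adjusted p 0.070) and without mixed IR replicate 2 (0.061), within a range of 0.012 to 0.070 over the alternatives.

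APOBEC3C, a single-domain enzyme with comparatively weak deaminase activity, showed the most precisely measured response. In HCT116 it was at 68.9, 73.9 and 72.7 CPM in NIR and at 217, 207 and 196 in IR. Every irradiated library lay above every control, and the mean was 2.88-fold higher (log2 fold change 1.53, SE 0.063, adjusted p 3.9e-15 by edgeR). The mixed cultures held 68.5, 65.9 and 72.0 CPM in NIR and 184, 161 and 160 in IR. This was 2.45-fold (log2 fold change 1.26, SE 0.067, adjusted p 2.0e-12 by edgeR). In MCF10A it was at 85.8, 93.4 and 87.6 CPM in NIR and 101, 105 and 97.4 in IR. These did not overlap either, and the log2 fold change was 0.16 (SE 0.053, adjusted p 0.010 by edgeR). The MCF10A call was lost without NIR replicate 1 (0.056) and without IR replicate 2 (0.074), within a range of 0.00031 to 0.074.

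APOBEC3F, a double-domain restriction factor, followed the same order of cultures. In HCT116 it was at 19.3, 19.6 and 19.7 CPM in NIR and 44.6, 40.0 and 43.0 in IR. The rise was 2.18-fold (log2 fold change 1.13, SE 0.086, adjusted p 1.3e-10 by edgeR). The mixed cultures held 19.2, 16.8 and 15.3 CPM in NIR and 38.4, 31.8 and 33.1 in IR. The groups stood apart there too, at 2.01-fold (log2 fold change 0.99, SE 0.099, adjusted p 4.1e-08 by edgeR). In MCF10A it was at 2.15, 3.04 and 2.12 CPM in NIR and 1.58, 1.90 and 1.68 in IR. All irradiated libraries were the lower ones, but the log2 fold change of -0.53 (SE 0.28) had an adjusted p of 0.11 by edgeR. In the fit of all 18 libraries it was -0.54 with an adjusted p of 0.012, and the range over alternatives was 0.012 to 0.41.

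APOBEC3G, the double-domain factor best known for blocking HIV lacking Vif, was rare. In HCT116 it was at 0.116, 0.342 and 0.362 CPM in NIR and 0.975, 0.784 and 1.09 in IR. The irradiated libraries were all higher, by 3.47-fold (log2 fold change 1.80, SE 0.55, adjusted p 0.0085 by edgeR). Without HCT116 NIR replicate 1 the adjusted p was 0.060, the upper end of a range from 0.0042. The mixed cultures held 0.143, 0 and 0.278 CPM in NIR, which is 14 counts over 3 libraries, and at 0.822, 1.71 and 1.27 in IR. The log2 fold change was 3.11 (SE 0.64, adjusted p 0.00036 by edgeR), and it was 4.17 without mixed NIR replicate 3 and 2.51 without mixed NIR replicate 2. There, APOBEC3G reached the filter's cut-off of 0.281 CPM in 3 irradiated libraries and in 0 controls, so it could be tested only because it was higher after irradiation. In MCF10A it had 0 to 8 counts per library and was not tested.

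APOBEC3H, a single-domain enzyme whose alleles differ in protein stability, was at 1.27, 1.77 and 1.01 CPM in HCT116 NIR and 3.35, 2.06 and 3.34 in IR. The groups did not overlap, and the rise was 2.16-fold (log2 fold change 1.10, SE 0.31, adjusted p 0.0041 by edgeR). In the mixed cultures it was at 1.04, 1.50 and 1.61 CPM in NIR and 2.55, 1.98 and 2.95 in IR. That rise was 1.80-fold (log2 fold change 0.81, SE 0.29, adjusted p 0.023 by edgeR). It was lost without mixed NIR replicate 1 (0.087), mixed IR replicate 1 (0.055) or mixed IR replicate 3 (0.10), within a range of 0.018 to 0.10. In MCF10A it had 4 to 12 counts per library, at 0.238 ± 0.0875 CPM in NIR and 0.339 ± 0.0913 in IR, overlapped, and was not tested.

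APOBEC3D, the double-domain gene between APOBEC3C and APOBEC3F, was low in all libraries, at 0 to 0.580 CPM. In HCT116 NIR the libraries were at 0.0868, 0.155 and 0.579 CPM and in IR at 0.396, 0.514 and 0.389. The highest control exceeded all irradiated libraries, and the log2 fold change of 0.72 had a 95% interval of -0.69 to 2.12 (adjusted p 0.40 by edgeR). Without HCT116 NIR replicate 3 it was 1.84 (adjusted p 0.086), the low end of its range, which reached 0.80. In the mixed cultures the log2 fold change was 0.12 (95% interval -1.10 to 1.33). Its sign turned without mixed NIR replicate 1, mixed NIR replicate 2 or mixed IR replicate 3, at -0.05, -0.04 and -0.32.

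**Figure D2:**
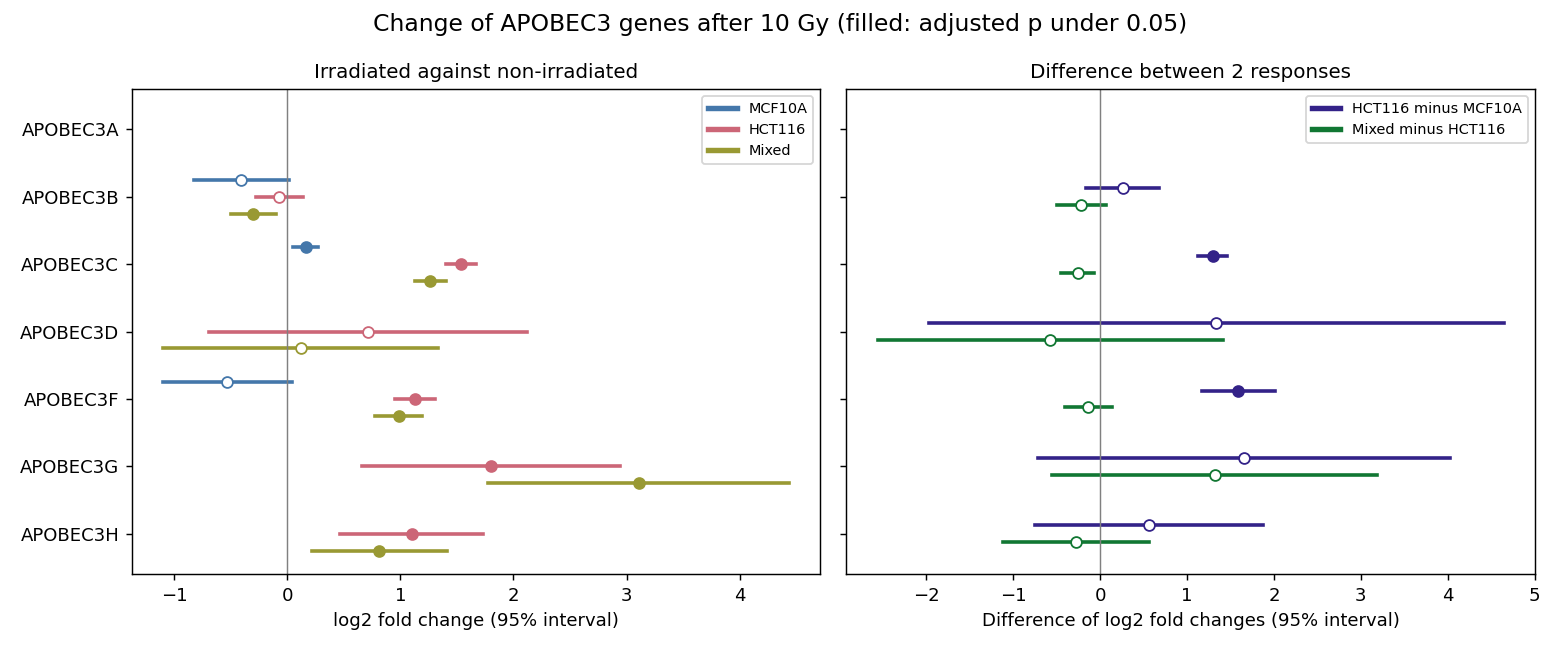
Log2 fold change of each APOBEC3 gene with its 95% interval, for irradiated against non-irradiated cultures (left) and for the difference between 2 such responses (right). Filled points had an adjusted p under 0.05 (edgeR). APOBEC3C and APOBEC3F are the filled points on the right, at 1.29 and 1.59 for HCT116 minus MCF10A. APOBEC3A was not tested.

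The responses of the lines were compared by an interaction term over the 12 monoculture libraries. APOBEC3C rose more in HCT116 than in MCF10A by 1.29 on the log2 scale (SE 0.082, adjusted p 5.9e-12 by edgeR), and APOBEC3F by 1.59 (SE 0.20, adjusted p 7.0e-07 by edgeR). For APOBEC3B the difference was 0.26 (95% interval -0.16 to 0.68, adjusted p 0.35). The intervals for APOBEC3G, -0.72 to 4.03, and APOBEC3H, -0.75 to 1.88, were wide, so their responses were not shown to differ. APOBEC3D and APOBEC3G had reached the filter's cut-off in 0 MCF10A libraries, so they were in this fit only through HCT116. APOBEC3B, APOBEC3C and APOBEC3F had reached it in every library of both lines. A share over genes at the cut-off throughout was not worked out for this comparison. Of all 6 tested genes, 2 were higher in HCT116 and 0 lower, against 15.4% and 21.9% of 18179 genes, with a median over all genes of -0.10. Without MCF10A IR replicate 1, 2 or 3 that median was 0.01, and 52.8 to 53.9% of the called genes were higher in HCT116, against 41.3% with all libraries. Without HCT116 IR replicate 2 they were -0.01 and 53.2%. APOBEC3C and APOBEC3F stayed at 1.25 to 1.43 and 1.38 to 1.77 with any 1 library left out.

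Without irradiation, HCT116 held more APOBEC3B, APOBEC3F and APOBEC3H RNA than MCF10A and less APOBEC3C. Of the 3 members at the cut-off in all 6 libraries, 2 were called higher and 1 lower, against 38.7% and 36.1% of 16568 tested genes (33.9% and 40.1% of the 12828 genes at the cut-off throughout). APOBEC3F was 8.01-fold higher (log2 difference 2.79, SE 0.16, adjusted p 2.0e-11 by edgeR), APOBEC3B 5.22-fold (2.18, SE 0.14, adjusted p 8.3e-11) and APOBEC3H 5.70-fold (2.28, SE 0.49, adjusted p 0.00045). APOBEC3H reached the cut-off in 3 HCT116 libraries and 0 MCF10A libraries, so it could be tested only because it was higher in HCT116. APOBEC3C differed by -0.51 (SE 0.062, adjusted p 8.2e-07). Scaling by library size alone or by upper quartiles moved the median of all genes from 0.05 to 0.25 and APOBEC3C to -0.31 and -0.30, with its direction kept in each alternative (-0.53 to -0.30). Upper-quartile factors also moved the share of called genes that were higher in HCT116 from 51.8% to 62.4%.

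After irradiation, APOBEC3B, APOBEC3C and APOBEC3F were the 3 members at the cut-off in all 6 libraries, and 3 were called higher in HCT116 than in MCF10A and 0 lower, against 38.1% and 36.8% of 16932 tested genes (35.0% and 39.9% of the 13063 genes at the cut-off throughout). APOBEC3C had changed places, at 207 ± 10.9 CPM in HCT116 and 101 ± 3.70 in MCF10A (log2 difference 0.80, SE 0.054, adjusted p 5.2e-13 by edgeR). APOBEC3F was 24.8-fold higher (4.40, SE 0.13, adjusted p 5.5e-21) and APOBEC3B 6.45-fold (2.46, SE 0.15, adjusted p 3.4e-14). For the rarer members the log2 differences were 2.85 for APOBEC3H (SE 0.39, adjusted p 3.8e-07), 2.50 for APOBEC3G (SE 0.67, adjusted p 0.0017) and 2.68 for APOBEC3D (SE 0.84, adjusted p 0.0060). APOBEC3D and APOBEC3G reached the cut-off in 3 HCT116 and 0 MCF10A libraries, so they could be tested only because they were higher in HCT116, and APOBEC3H reached it in 3 and 1. Scaling by library size alone put 62.4% of all called genes higher in HCT116, against 50.9%. APOBEC3D was at 6.68 without MCF10A IR replicate 3, whose 5 counts were the group's total, and lost its call without MCF10A IR replicate 2 (2.17, adjusted p 0.051, in a range from 0.0011). APOBEC3G was at 3.51 without MCF10A IR replicate 2 and at 1.85 without MCF10A IR replicate 3.

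The order of the groups followed from these levels. APOBEC3B ran from HCT116 NIR through HCT116 IR and mixed NIR, whose neighbours overlapped, to mixed IR and then MCF10A NIR and IR, which each stood clear of the next. APOBEC3C ran from HCT116 IR through mixed IR, MCF10A IR and MCF10A NIR to HCT116 NIR, all without overlap, and mixed NIR overlapped HCT116 NIR. For APOBEC3F the order was HCT116 IR, mixed IR, HCT116 NIR, mixed NIR, MCF10A NIR and MCF10A IR, and no neighbours overlapped, although HCT116 NIR and mixed NIR were separated only by 19.27 against 19.22 CPM. APOBEC3G was highest in mixed IR and HCT116 IR, which overlapped, and the remaining 4 groups overlapped one another in order. APOBEC3H was highest in HCT116 IR and mixed IR, then in mixed NIR and HCT116 NIR, then in MCF10A IR and NIR, with overlap inside each pair and none between pairs. APOBEC3D and APOBEC3A overlapped at every step.

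In the mixed cultures without irradiation, 0 of 4 tested APOBEC3 genes differed from HCT116 NIR by edgeR or by DESeq2, and 1 of 4 had an unadjusted p under 0.05 in each. In this comparison 0.887% of 16455 genes were higher and 1.15% lower. The gene with the small unadjusted p was APOBEC3B, at 19.3 ± 0.651 CPM against 23.1 ± 0.708, with no overlap (log2 difference -0.24, 95% interval -0.44 to -0.05, adjusted p 0.21 by edgeR). APOBEC3C differed by -0.05 (-0.19 to 0.10), APOBEC3F by -0.18 (-0.40 to 0.04) and APOBEC3H by 0.05 (-0.67 to 0.77), intervals that do not show equality.

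After irradiation, APOBEC3B, APOBEC3C and APOBEC3F were lower in the mixed cultures than in HCT116, so 3 of 6 were called lower and 0 higher, against 3.48% and 5.08% of 17137 genes. APOBEC3B was at 16.0 ± 1.24 against 21.8 ± 2.36 CPM (log2 difference -0.46, SE 0.10, adjusted p 0.0035 by edgeR). APOBEC3C was at 168 ± 13.7 against 207 ± 10.9 CPM (-0.31, SE 0.060, adjusted p 0.00080), and APOBEC3F at 34.4 ± 3.50 against 42.6 ± 2.35 CPM (-0.31, SE 0.081, adjusted p 0.011). None of the 3 overlapped. The APOBEC3F call was lost in the fit of all 18 libraries (adjusted p 0.096), without mixed IR replicate 2 (0.11) and without mixed IR replicate 3 (0.090), in a range from 0.0010. APOBEC3G was at 1.27 ± 0.444 CPM against 0.949 ± 0.154 and overlapped (0.42, 95% interval -0.38 to 1.22), and APOBEC3D and APOBEC3H also overlapped. The responses to irradiation were not shown to differ between mixed and HCT116 cultures: 0 of 6 genes were called by edgeR or DESeq2, 1 of 6 at an unadjusted p under 0.05 in each, against 0.681% of 18072 genes higher and 0.149% lower. The gene with the small unadjusted p was APOBEC3C, at -0.26 (95% interval -0.45 to -0.06, adjusted p 0.23 by edgeR).

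At the estimated MCF10A shares, a weighted sum of the monocultures gives 21.6 CPM of APOBEC3B, 206 of APOBEC3C and 42.1 of APOBEC3F for irradiated mixtures, above the measured 16.0, 168 and 34.4. A sum with 50% of each line gives 12.6, 154 and 22.1 CPM, below them. Measured APOBEC3B lay 31.7% of the way from HCT116 IR to MCF10A IR, APOBEC3C 36.5% and APOBEC3F 19.9%. APOBEC3H lay at 16.4% and APOBEC3D at 14.5%, and APOBEC3G lay beyond HCT116 IR, at -39.7%. Without irradiation APOBEC3B lay at 20.4% and APOBEC3F at 14.0%, while APOBEC3C and APOBEC3H lay beyond HCT116 NIR, at -17.7% and -2.74%. Of these genes, APOBEC3D, APOBEC3G and APOBEC3H in IR and all 4 in NIR were not called different from HCT116. These shares differ from gene to gene and from the 1.23% estimated from line-specific genes. Which medium the mixtures grew in is unknown here, so it may or may not differ in this comparison, and its part was not tested.

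Comparison between genes was made on CPM per kb of exon. APOBEC3C gave 25.5 ± 0.923 CPM per kb in HCT116 NIR and 73.4 ± 3.85 in IR, which was 55.9% ± 0.734 and 71.8% ± 0.555 of the family's length-scaled total. Over the same groups the share of APOBEC3B went from 26.8% ± 1.14 to 11.3% ± 0.927, and that of APOBEC3F was 14.1% ± 0.194 and 13.7% ± 0.789. The mixed cultures had nearly the same makeup, with APOBEC3C at 58.6% ± 0.877 and 72.3% ± 1.46 and APOBEC3B at 24.4% ± 0.103 and 10.2% ± 1.09. In MCF10A, APOBEC3C held 90.2% ± 1.06 in NIR and 92.9% ± 1.01 in IR, and APOBEC3B 6.63% ± 0.755 and 4.62% ± 0.722. APOBEC3H, at 2.50 to 2.91% in the groups with HCT116, and APOBEC3D and APOBEC3G, each under 1%, added little. With principal transcript lengths APOBEC3C was still first, at 54.4% in HCT116 NIR and 70.2% in IR. Summed over the 7 genes, the level was 96.3 ± 5.10 and 107 ± 4.04 CPM in MCF10A NIR and IR, 116 ± 2.99 and 276 ± 13.5 in HCT116, and 107 ± 3.49 and 223 ± 16.5 in the mixed cultures.

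**Figure D3:**
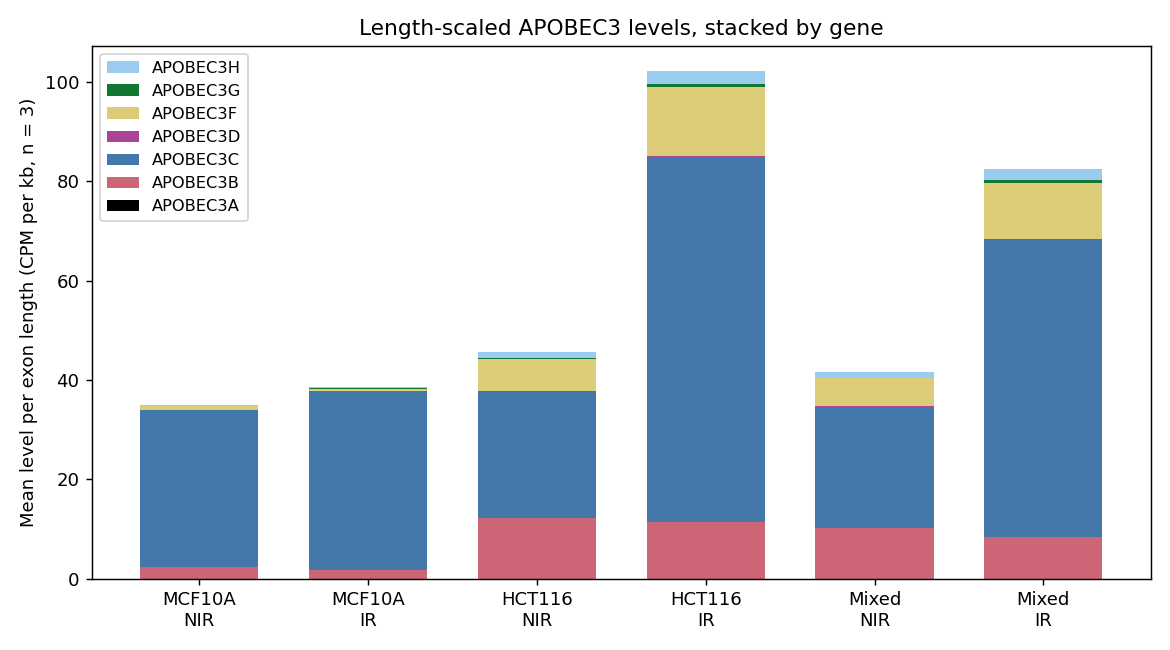
Mean CPM per kb of exon (n = 3), stacked over the 7 APOBEC3 genes in each group, without error bars. APOBEC3C forms most of each bar, 55.9% in HCT116 NIR and 71.8% in HCT116 IR, and the APOBEC3B part is of similar height in both.

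Genes outside the family were read from lists of related function. Over all tested genes, 26.2% were called higher and 29.2% lower in MCF10A IR, 25.3% and 27.2% in HCT116 IR, and 24.0% and 25.4% in mixed IR. The list counts below stand against these shares. The related deaminases APOBEC1 and APOBEC4 were below the filter in all 3 irradiation comparisons. APOBEC2, a family member without known DNA-editing activity, was tested in HCT116 and the mixed cultures, and it fell by 1.37 (SE 0.41, adjusted p 0.0077 by edgeR) and by 2.46 (SE 0.49, adjusted p 0.00027) on the log2 scale, opposite to APOBEC3C and APOBEC3F. It was rare, at 1.56 ± 0.228 and 0.597 ± 0.178 CPM in HCT116 NIR and IR. The mixed cultures held 1.51 ± 0.451 and 0.279 ± 0.177 CPM, with 30 counts over the IR libraries. It was named although it stayed under the 5 CPM set for list genes. Of the 4 nearest protein-coding genes beside the cluster, 3 were called higher in each comparison, and 1, CBX6, lower in MCF10A. PDGFB and NPTXR were called higher in all 3 cultures. In MCF10A, HCT116 and mixed cultures, PDGFB rose by 1.11, 0.35 and 0.43 on the log2 scale, and NPTXR by 0.99, 0.44 and 0.69. CBX6, a Polycomb subunit, was at 166 ± 13.0 and 236 ± 5.16 CPM in HCT116 NIR and IR (log2 fold change 0.52, SE 0.063, adjusted p 3.2e-07 by edgeR). CBX7, another, was the one not called there, with -0.28 (SE 0.12, adjusted p 0.058). Its call in MCF10A (0.50, adjusted p 0.022) was lost without NIR replicate 2 (0.063), NIR replicate 3 (0.075), IR replicate 1 (0.14) or IR replicate 3 (0.062).

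Uracil left by APOBEC3 enzymes is removed by UNG and handled by base excision and translesion enzymes. Of 16 such genes, all tested, 4 were higher and 10 lower in HCT116 IR, 4 and 10 in mixed IR, and 0 and 11 in MCF10A IR, with medians of -0.34, -0.36 and -0.44. UNG, the main uracil DNA glycosylase, fell from 96.0 ± 4.28 to 75.5 ± 0.960 CPM in HCT116 (log2 fold change -0.34, adjusted p 0.00010 by edgeR) and from 58.0 ± 5.68 to 33.5 ± 0.659 in MCF10A (-0.82, adjusted p 1.6e-10). DUT, which keeps dUTP out of DNA, fell in all 3 cultures, by 1.24 in HCT116, 1.21 in the mixed cultures and 1.12 in MCF10A. APEX2, an abasic-site nuclease, rose in HCT116 by 0.82 (adjusted p 3.6e-08). Of polymerase zeta, the catalytic subunit REV3L rose by 0.76 (adjusted p 1.2e-08) and its partner MAD2L2 fell by 1.19 (adjusted p 1.4e-11), with 52.5 ± 1.69 CPM in NIR and 22.9 ± 0.138 in IR. APOBEC3C and APOBEC3F thus rose in HCT116 while UNG and DUT fell.

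DREAM, E2F and RB genes include the repressor complex known to act on APOBEC3B. Of 21, all tested, 4 were higher and 12 lower in HCT116 IR, 4 and 13 in mixed IR, and 1 and 16 in MCF10A IR, with medians of -0.56, -0.52 and -0.56. CDKN1A, which encodes p21, rose from 318 ± 39.3 to 1593 ± 90.2 CPM in HCT116 (log2 fold change 2.33, adjusted p 5.0e-17 by edgeR) and from 172 ± 10.4 to 590 ± 26.6 in MCF10A (1.76, adjusted p 1.1e-21). MYBL2, which replaces the repressive subunits when cells cycle, fell by 1.41 in HCT116 and 1.54 in MCF10A, and LIN9 of the MuvB core by 0.74 and 1.30. Of the E2F factors, E2F1 fell by 1.47 in HCT116 and 1.35 in MCF10A, E2F8 by 1.37 and 2.00, and E2F2 by 0.95 and 1.87. E2F3 and E2F5 rose in HCT116, by 0.39 and 0.31 (adjusted p 1.8e-05 and 0.018 by edgeR), as did TFDP2 by 0.48. In MCF10A, E2F5 fell by 0.61 and E2F3 was not called, at 0.06. Beside these, the log2 fold change of APOBEC3B was -0.07 in HCT116 and -0.41 in MCF10A, neither of them called. In the mixed cultures it was -0.30 (adjusted p 0.015 by edgeR), a call that some alternatives lost, as given above.

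In the NF-kappaB and protein kinase C list, 3 of 15 genes were higher and 5 lower in HCT116 IR, 4 and 3 in mixed IR, and 5 and 5 in MCF10A IR, with medians of 0.05, 0.08 and 0.09. RELB, the non-canonical subunit known to occupy the APOBEC3B promoter, rose in HCT116 by 0.48 (SE 0.13, adjusted p 0.0044 by edgeR) and in the mixed cultures by 0.42 (adjusted p 0.013), a call lost there without mixed NIR replicate 3 (0.082) or mixed IR replicate 3 (0.071). In MCF10A it was at 0.30 with an adjusted p of 0.050, just over the threshold. Without MCF10A IR replicate 3 it was 0.12 (adjusted p 0.50) and without IR replicate 2 it was 0.45 (0.0033), the ends of the range over the alternatives. REL, another subunit, fell by 0.63 in HCT116 (adjusted p 0.00016 by edgeR) and by 0.56 in the mixed cultures (adjusted p 6.8e-05). PRKCA fell in all 3 cultures, by 1.04 in HCT116, 0.77 in mixed and 0.47 in MCF10A. TNFAIP3, an NF-kappaB target that limits the pathway, rose by 0.86 in MCF10A.

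Interferon genes were called higher more often than lower in all 3 cultures. Of 23 tested from a list of 27 ligands, receptors, factors and targets, 15 were higher and 2 lower in mixed IR, 11 and 5 in HCT116 IR, and 17 and 0 in MCF10A IR, with medians of 0.90, 0.29 and 0.67. Between the responses of mixed and HCT116 cultures, 7 of 24 tested genes of this list were called higher and 0 lower, against 0.681% and 0.149% of 18072 genes. There, 0 of 6 APOBEC3 genes were called. IFI44L went from 0.560 ± 0.259 to 10.4 ± 0.646 CPM in the mixed cultures, a rise of 4.23 on the log2 scale (adjusted p 3.8e-12 by edgeR). In HCT116 and MCF10A, IFIT2 rose by 1.73 and 1.32 and IFIT3 by 1.63 and 0.56. IFIT1 rose by 1.14 and 1.93 in these lines, and ISG15 by 0.93 and 1.84. IRF7 and the lambda receptor IFNLR1 fell in HCT116, by 0.92 and 0.81, and rose in MCF10A, by 0.75 and 0.60. In the response difference between HCT116 and MCF10A, 2 of 23 interferon genes were higher and 12 lower, against 15.4% and 21.9% of 18179 genes. APOBEC3C and APOBEC3F were higher there.

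**Figure D4:**
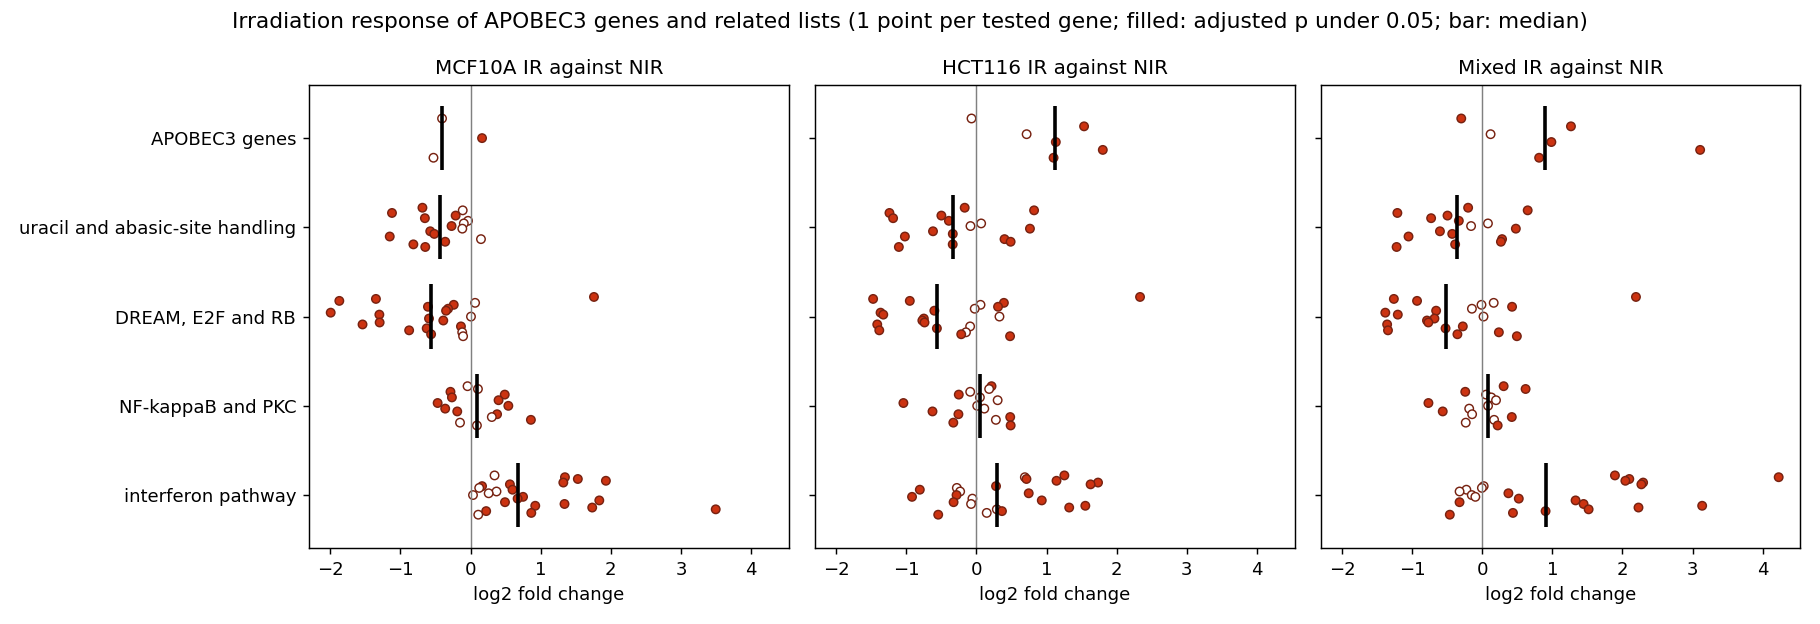
Log2 fold change after irradiation for each tested gene of the APOBEC3 family and of 4 related lists, in the 3 kinds of culture. Filled points had an adjusted p under 0.05 (edgeR), and black bars are medians. The APOBEC3 median was 1.12 in HCT116 and -0.41 in MCF10A, and the uracil-handling median was -0.34 and -0.44.

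The genes whose levels most resembled each member were found by Pearson's r of log2(CPM + 0.5) over the 18 libraries, among 12263 genes of at least 5 CPM in some group. The libraries share groups, so r mostly reflects the 6 group means and is given as a description. For APOBEC3C the 3 nearest were PSTPIP2 (r 0.992), POLH (0.981) and CPA4 (0.979). POLH, the translesion polymerase eta, was at 58.2 and 105 CPM in HCT116 NIR and IR and at 61.4 and 71.0 in MCF10A. For APOBEC3B they were PCBD1 (0.992), LAPTM4B (0.991) and DYNLT1 (0.990), genes higher in HCT116 and little moved by irradiation, such as PCBD1 at 51.7 and 50.0 CPM in HCT116 and 24.5 and 23.8 in MCF10A. For APOBEC3F they were ZNF469 (0.995), WDR59 (0.994) and ALOX5 (0.994). ZNF469 was at 0 CPM in both MCF10A groups and at 13.4 and 44.1 in HCT116. For APOBEC3H they were TMEM179B (0.979), CATSPERG (0.977) and SEMA7A (0.975), and for the rare APOBEC3G they were GRAMD4 (0.921), OSBPL3 (0.919) and FHIT (0.913).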

How the data were processed

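The authors deposited 1 table of raw counts per gene symbol for each of the 18 libraries, made from a stranded mRNA kit (per the labels) and with fastp, STAR and featureCounts on GRCh38 (per the submitters' processing notes). Versions, annotation and strand setting are not given in the sources used here. Of the counts from 1 to 10, 68.3% were even, so a fit with halved counts was added. Labels state biological replicates.

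Tests used edgeR 4.0.16 (R 4.3.3) with TMM factors, filterByExpr (minimum count 10) and the 2-sided quasi-likelihood test on the compared groups, adjusted over all genes tested. SE came from the fold change and F. The fit was tested on simulated data. Genes at the filter's cut-off in every library were counted apart, a choice made after seeing the data. Alternatives were DESeq2 1.42.0, other scalings, no filter, halved counts, a replicate block, all 18 libraries and leaving out each library. Line-specific genes had a mean of at least 20 CPM in 1 line and stayed below 1 CPM in all libraries of the other. Lengths came from GENCODE 29 and positions and the promoter from RefSeq (GRCh38.p14).

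The members and lists were chosen with earlier results of these data known. All 7 members were named, with the 2 called genes of largest change per list and direction (at least 5 CPM) and UNG, CDKN1A, MYBL2, LIN9 and RELB, of which a selection is given. E2F3 and E2F5 were added outside this rule, and some genes are also given in cultures beyond those that named them. Some genes that the rule names and part of the HCT116 genotype are not reported here. Replicate numbers were not taken as pairs.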

Additional observations from a re-analysis of the deposited data

Results flagged for a closer look

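The response to irradiation differed between the lines for APOBEC3C and APOBEC3F, by a test of the difference itself. APOBEC3C rose more in HCT116 than in MCF10A by 1.29 on the log2 scale, and all 3 irradiated libraries lay above the controls in both lines. APOBEC3F differed by 1.59, with all 3 irradiated HCT116 libraries above and all 3 irradiated MCF10A libraries below their controls. Leaving out any 1 of the 12 libraries gave 1.25 to 1.43 for APOBEC3C and 1.38 to 1.77 for APOBEC3F. The medium moves with the line, and the mitochondrial share moves with the line and with irradiation. Their part was not tested.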

How the results depend on the processing

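Of the APOBEC3 fold changes refitted under other settings for all libraries, 364 kept their direction and side of the threshold, 2 lost the call and 2 gained one. With a library left out, 334 kept both, 10 lost the call and 10 changed sign, none of the latter called. In MCF10A the number of APOBEC3 genes called was 3 with all 18 libraries in the fit, and 0 to 1 with a library left out. Over such fits APOBEC3B in HCT116 ran from -0.13 to 0.018 on the log2 scale, APOBEC3D in the mixed cultures from -0.32 to 0.52, APOBEC3D of mixed against HCT116 IR from -0.66 to 0.021, APOBEC3H of mixed against HCT116 NIR from -0.10 to 0.29, and the response difference of APOBEC3D between the lines from -3.32 to 5.38. Genes called between mixed and HCT116 NIR numbered 335, against 575 with DESeq2, 671 without the filter, 768 with all 18 libraries and 145 to 313 with a library left out. Between mixed and HCT116 IR they numbered 866 to 1312 with a library left out, against 1467. For the response difference of mixed and HCT116 they numbered 150, against 327 with DESeq2, 336 without the filter and 64 to 197 with a library left out. The MCF10A share was 0.322% and 1.01% with stricter marker limits and 0.705% and 2.17% from sums. Leaving out a library also means fewer samples, and the cause of the other shifts was not tested.

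Replicate numbers shared by the groups were not taken as pairs: the residuals of same-numbered libraries correlated at -0.15 to 0.20, and in 0 of 15 pairs of groups did all 3 exceed 0.1. Of 45 pairs of same-numbered libraries, 12 correlated best with their own number. The highest values were between HCT116 and mixed cultures, at 0.124, -0.005 and 0.196 in NIR and 0.160, 0.057 and 0.047 in IR. A replicate block gave 706 genes between mixed and HCT116 NIR, against 335 without it, and 2159 between mixed and HCT116 IR, against 1467. Whether those libraries shared a batch was not tested. The block left each count of APOBEC3 genes called as it was, with APOBEC3C at 1.29 for the difference between the lines. APOBEC3A had 0 to 2 counts per library, APOBEC3D 0 to 21 and APOBEC3G 0 to 11 in NIR. The size of change that could be called at such depth was not tested.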
